A study of Homo sapiens with 6 samples.

Results

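The genes of this report are the 9 that start, restrain or localise blood coagulation and plasminogen activation at the surface of a tumour cell: F3, TFPI, TFPI2, PLAU, PLAUR, PLAT, SERPINE2, THBD and PROCR. They were chosen by symbol, each matched exactly 1 row among the 20532 genes of the deposited table, and all 9 passed the filter on low counts that left 13710 genes. RNA was sequenced from MDA-MB-231 M3, a bone-metastatic derivative of a human triple-negative breast cancer line. There were 3 control libraries, from cells that the labels call only untreated or control, and 3 libraries from cells in which PRMT1 was knocked down with a small interfering RNA (siPRMT1). PRMT1 places most asymmetric dimethyl marks on arginine residues of proteins. No source used here says if the controls were mock-transfected or given a non-targeting siRNA, and the siRNA sequence and the time after transfection are likewise not stated. Both groups are the same cell line, so the cells carry no other difference that the labels name.

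Tissue factor, the product of F3, is a membrane receptor that binds coagulation factor VII and starts the clotting cascade. TFPI and TFPI2 encode Kunitz-type protease inhibitors; the first shuts off the tissue factor complex, and the second acts mainly on plasmin and other matrix proteases. Urokinase (PLAU) and tissue plasminogen activator (PLAT) cut plasminogen into plasmin, the protease that dissolves fibrin, and PLAUR holds urokinase on the cell. SERPINE2 encodes protease nexin-1, an inhibitor of thrombin and of both activators. Thrombomodulin (THBD) and the endothelial protein C receptor (PROCR) turn thrombin towards activation of the anticoagulant protein C. MDA-MB-231 cells are known for strong tissue factor and urokinase receptor expression.

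The sequence in front of the transcription start is shown for the genes that fell most (F3, TFPI2) and for TFPI as the other inhibitor. It is also shown for the urokinase pair (PLAU, PLAUR), higher before the correction for base composition given further on. RefSeq's table (GRCh38.p14) held 7 of the 9 genes. Each run is the 250 bases before the start on the gene's own strand, 5′ to 3′. Capitals mark matches on either strand to 4 short motifs: AP-1 (TGANTCA), SP1 (GGGCGG), TEAD (GGAATG) and the TATA box (TATAAA). For PLAU, which has 2 listed starts, the one at the start of GENCODE's canonical transcript is shown.
F3, chr1:94541760-94542009, minus strand: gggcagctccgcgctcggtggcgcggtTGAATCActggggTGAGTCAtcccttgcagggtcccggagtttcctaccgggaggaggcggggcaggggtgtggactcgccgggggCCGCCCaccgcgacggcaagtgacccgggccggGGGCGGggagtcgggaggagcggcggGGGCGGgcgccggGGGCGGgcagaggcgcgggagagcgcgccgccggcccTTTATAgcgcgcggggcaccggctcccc
TFPI2, chr7:93890754-93891003, minus strand: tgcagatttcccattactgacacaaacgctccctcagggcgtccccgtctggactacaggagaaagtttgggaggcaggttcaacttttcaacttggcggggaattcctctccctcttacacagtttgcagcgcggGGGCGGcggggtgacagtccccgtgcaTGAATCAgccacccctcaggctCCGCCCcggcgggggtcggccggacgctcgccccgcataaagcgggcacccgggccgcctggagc
TFPI, chr2:187554436-187554685, minus strand: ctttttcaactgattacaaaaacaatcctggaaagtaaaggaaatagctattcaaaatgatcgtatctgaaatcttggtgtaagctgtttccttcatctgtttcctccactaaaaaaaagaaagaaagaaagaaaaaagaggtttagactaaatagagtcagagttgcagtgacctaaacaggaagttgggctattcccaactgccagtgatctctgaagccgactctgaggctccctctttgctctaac
PLAU, chr10:73910882-73911131, plus strand: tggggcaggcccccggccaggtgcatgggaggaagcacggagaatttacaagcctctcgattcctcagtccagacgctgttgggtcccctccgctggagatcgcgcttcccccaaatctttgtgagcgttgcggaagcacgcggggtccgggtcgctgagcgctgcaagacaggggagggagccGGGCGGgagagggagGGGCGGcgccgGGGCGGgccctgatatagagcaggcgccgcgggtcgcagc
PLAUR, chr19:43670170-43670419, minus strand: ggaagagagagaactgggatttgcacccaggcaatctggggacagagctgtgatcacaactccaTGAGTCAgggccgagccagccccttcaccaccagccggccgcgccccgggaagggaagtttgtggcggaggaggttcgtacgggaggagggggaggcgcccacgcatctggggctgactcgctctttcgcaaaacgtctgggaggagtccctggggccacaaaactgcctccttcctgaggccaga

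The F3 run held 2 AP-1 matches, whose first bases lay 223 and 210 bases before the start, 4 SP1 matches and a TATA match 28 bases before the start. TFPI2 held 1 AP-1 and 2 SP1 matches, PLAUR 1 AP-1 match and PLAU 3 SP1 matches. The TFPI run held none of these letters. Among 35116 runs of the same length in the table, 6.57% held the AP-1 letters, 42.6% SP1, 10.7% TATA and 11.9% TEAD. No 2 matches overlapped in the genes with 1 listed start, and no TEAD match was found in any of the 7 genes. The runs also differed in base composition. F3 was 78.0% G and C with 34 CpG dinucleotides, more than 93.2% of all runs, while TFPI was 38.4% with 2. AP-1 matches stood in front of genes that fell and of PLAUR, which was higher before the correction for base composition given further on. A match is a description of letters and was not tested for binding.

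The knockdown was seen in PRMT1 itself, with 2991 to 3160 counts in control and 181 to 218 in siPRMT1 libraries. Total counts ran from 16968563 to 20545995 per library. The comparison used edgeR's quasi-likelihood test on the counts, with TMM scaling between libraries. Levels are CPM, counts relative to the TMM-scaled size of the library, and log2 fold changes are siPRMT1 minus control. The threshold was an adjusted p of 0.05 (Benjamini-Hochberg over all tested genes). Of all tested genes 89.3% passed, 45.0% lower and 44.3% higher, so passing alone sets no gene apart. With library size as the only scaling, the median log2 fold change of all genes shifted by -0.317. Mitochondrially encoded genes took at most 5.09% of the counts in each control library and at least 8.64% in each siPRMT1 library. The labels speak of biological replicates but not of separate transfections, so the p-values reflect the spread among these 6 libraries alone, part of which may be technical. In bulk RNA, fewer cells of a kind and less RNA per cell cannot be told apart.

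Of the 9 genes 6 fell and 3 rose in siPRMT1 cells. F3, TFPI2, TFPI, THBD, PLAT and SERPINE2 were lower, and PLAU, PLAUR and PROCR were higher. None of the 9 had overlapping groups, as was true of 89.1% of all tested genes. Their median log2 fold change was -0.27, against -0.0082 over all tested genes. At least 2-fold changes were seen for F3 and TFPI2, both lower, where 21.0% of all tested genes were lower by as much; none of the 9 was higher by as much, where 15.3% of all tested genes were.

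**Figure D1:**
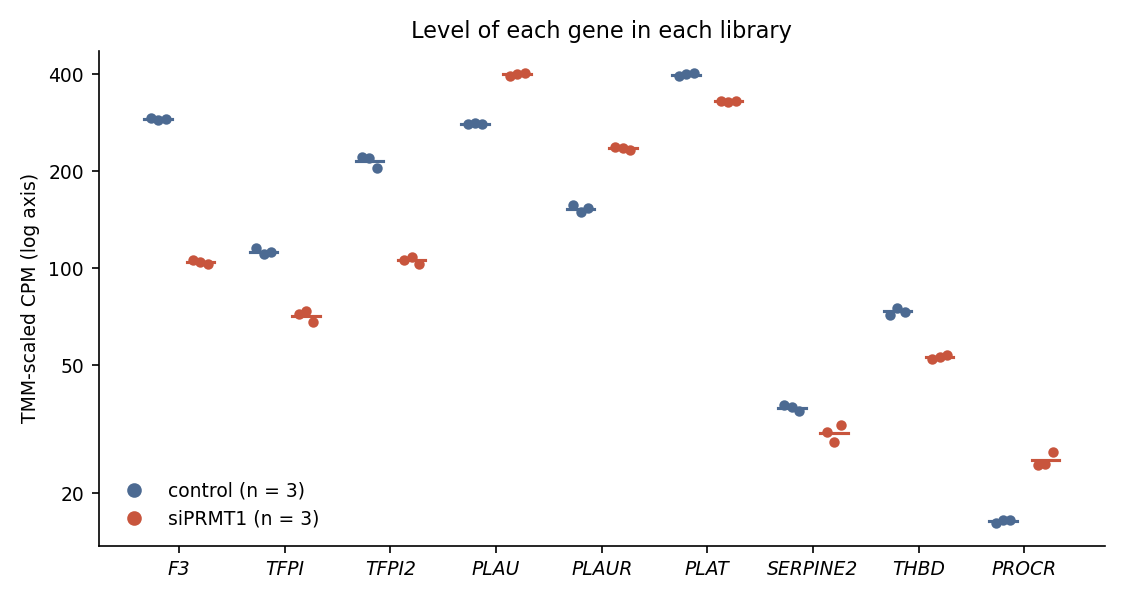
TMM-scaled CPM (log axis) of each gene in each of the 6 libraries; points are libraries and bars are group means (n = 3 each). The groups are apart for all 9 genes, widest for F3 and narrowest for SERPINE2.

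F3 (ENSG00000117525; hg38, chromosome 1, 94529173 to 94541637, minus strand) changed most. Its level was 291, 287 and 289 CPM in the control libraries and 106, 104 and 103 CPM in the siPRMT1 libraries. All siPRMT1 libraries lay far below all control libraries. The means were 289 ± 2.09 and 104 ± 1.53 CPM (SD, n = 3 each), a 2.77-fold fall. On the log2 scale this is -1.47 (SE 0.0239; edgeR, adjusted p = 1.75e-242). Without control replicate 3 the log2 fold change was again -1.47, but the adjusted p was 6.12e-41 (edgeR). Only 11.7% of all tested genes had a lower log2 fold change.

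Both Kunitz inhibitor genes fell, but by less. TFPI2 (chromosome 7, 93885396 to 93890753, minus strand) had 221, 220.04 and 204 CPM in the controls and 106, 108 and 103 CPM in siPRMT1 cells. Control replicate 3 was the lowest of its group and still far above the siPRMT1 libraries. The fall was 2.03-fold (log2 fold change -1.02, SE 0.0256; adjusted p = 1.18e-161, edgeR). TFPI2 lies wholly inside GNGT1 on the opposite strand over 5358 bases, and no source used here states whether the counting used strand. TFPI (chromosome 2, 187464230 to 187565760, minus strand) had 115, 111 and 112 CPM against 71.9, 73.5 and 68.1 CPM. It fell 1.58-fold (-0.66, SE 0.0314; adjusted p = 5.59e-71, edgeR), and its direction depends on the correction for base composition given further on.

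The plasminogen activators went opposite ways. PLAU (chromosome 10, 73909177 to 73917496, plus strand), the urokinase gene, rose from 279, 282 and 279 CPM to 394, 401 and 402 CPM. That is 1.42-fold higher (log2 fold change 0.51, SE 0.0174; adjusted p = 2.23e-112, edgeR). Its raw counts were close in the groups, from 5649 to 6123 in the controls and from 6123 to 7381 in siPRMT1 cells. With scaling by library size alone the log2 fold change of PLAU was 0.19. With the correction for base composition and length given further on, little of the rise was left (0.081, SE 0.0185). PLAT (chromosome 8, 42174718 to 42207565, minus strand) was the gene with the most counts among the 9 in control cells. It went from 395, 399 and 402 CPM to 329.9, 328 and 331 CPM, a 1.21-fold fall (-0.27, SE 0.0165; adjusted p = 6.59e-50, edgeR). In CPM, which does not allow for gene length, PLAU exceeded PLAT in every siPRMT1 library, the reverse of the control libraries. Per kilobase of deposited gene length PLAU was already higher than PLAT in control cells (95.1 against 51.3). Per kilobase of canonical transcript it was lower there (120 against 130).

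With TMM scaling the receptor gene PLAUR (chromosome 19, 43646095 to 43670167, minus strand) rose with the gene of its ligand. It had 157, 149 and 153 CPM in control cells and 238, 235 and 233 CPM in siPRMT1 cells, 1.54-fold higher (0.62, SE 0.0228; adjusted p = 3.43e-102, edgeR). With library size alone the rise was 0.30. The direction of PLAUR depends on the correction for base composition given further on, where it was at -0.38 and PLAU at 0.081. The inhibitor gene SERPINE2 (chromosome 2, 223975045 to 224039286, minus strand) had the smallest change of the 9. Its level was 37.5, 37.2 and 36.0 CPM in the controls and 30.9, 28.9 and 32.6 CPM after knockdown, where the replicate spread was the widest of the 9 (6.13% of the mean). The log2 fold change was -0.26 (SE 0.0486; adjusted p = 1.09e-07, edgeR).

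The protein C pair also split with TMM scaling. With the correction for base composition and length given further on, both genes were lower (THBD -0.65, PROCR -0.14). THBD (chromosome 20, 23045633 to 23049672, minus strand; a gene of 1 exon) had 71.6, 75.4 and 73.3 CPM in control cells and 52.1, 53.1 and 53.6 CPM in siPRMT1 cells. It fell 1.39-fold (-0.47, SE 0.0367; adjusted p = 1.14e-32, edgeR). PROCR (chromosome 20, 35172072 to 35215904, plus strand), the least abundant of the 9 by CPM, rose from 16.2, 16.5 and 16.5 to 24.4, 24.7 and 26.9 CPM. That is 1.55-fold higher (0.63, SE 0.0611; adjusted p = 1.97e-22, edgeR). PROCR overlaps MMP24OS on the opposite strand over 14160 bases. In GENCODE 44 long noncoding RNA genes also run opposite to PLAU (C10orf55, 7528 bases) and TFPI (CALCRL-AS1, 92059 bases), so reads of these pairs may not have been told apart.

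Across 13694 genes, which are not independent replicates, the log2 fold change correlated with the G and C content of the canonical transcript (Spearman's rho 0.65) and with its length (-0.56). Each value was therefore also computed with offsets that remove both properties per library, which left rho at 0.013 and -0.036. The cause of the relation was not tested. Under the offsets 80.3% of all tested genes passed, 42.7% lower and 37.5% higher. The sign held for 6 of the 9 genes and turned for 3, compared with 26.0% of all genes past the threshold whose sign turned. F3 kept most of its fall, at -1.30 (SE 0.0239), and only 6.29% of genes then lay lower. TFPI2 (-0.52), THBD (-0.65), PLAT (-0.47) and SERPINE2 (-0.29) stayed lower. PLAU stayed higher at 0.081 (SE 0.0185).

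The 3 genes whose sign turned were TFPI (0.41), PLAUR (-0.38) and PROCR (-0.14), with adjusted p values of 2.02e-17, 5.52e-21 and 0.0309 by edgeR with the offsets. TFPI has the lowest G and C content of the 9 (34.7% of a canonical transcript of 3859 bases). PLAUR (55.9%, 1368 bases) has the highest, and PROCR (52.4%, 1349 bases) has the shortest transcript. The median over tested genes was 48.6% and 3253 bases. Directions given for these 3 genes therefore hold for TMM scaling and library size but not with the offsets.

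**Figure D2:**
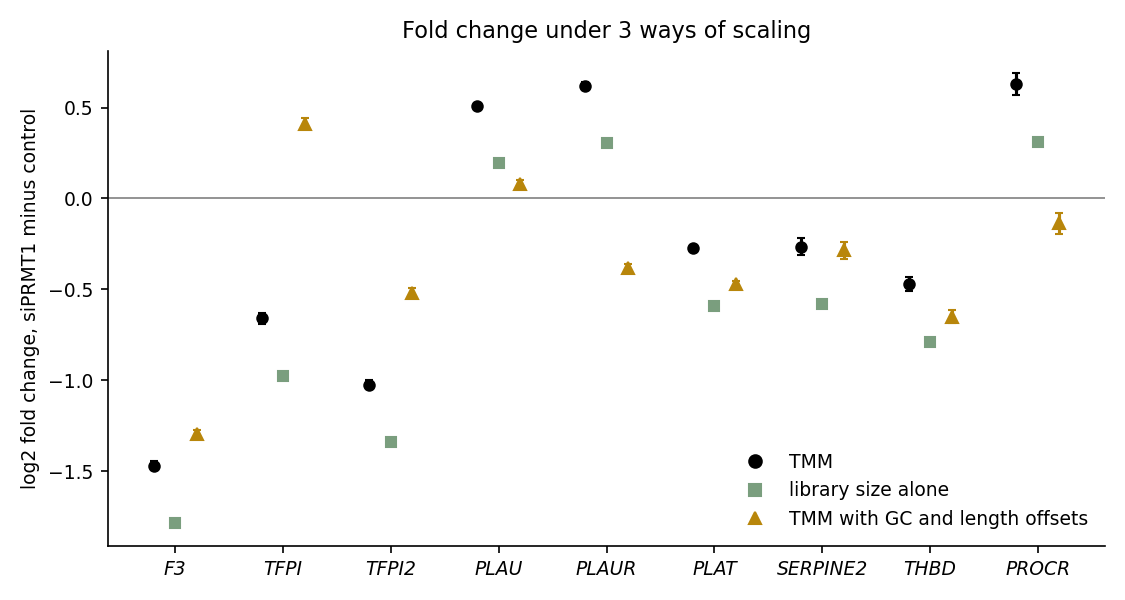
Log2 fold change of each gene (siPRMT1 minus control) with TMM scaling (circles, ± SE), library size alone (squares) and TMM with GC and length offsets (triangles, ± SE). F3 is the lowest under all 3, while TFPI, PLAUR and PROCR cross 0 with the offsets.

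To compare genes with each other, CPM was divided by the gene length in the deposited table. In control cells F3 stood highest at 100.2 ± 0.724 CPM per kilobase (SD, n = 3), before PLAU (95.1), TFPI2 (88.01), PLAT (51.3), PLAUR (34.3) and THBD (18.2). PROCR (9.65) and TFPI (9.61) did not differ beyond their spread, and SERPINE2 (4.12) was last. In siPRMT1 cells PLAU stood highest at 135 ± 1.63 and PLAUR next at 52.8. TFPI2 (43.2) and PLAT (42.4) overlapped between libraries, and F3 had moved from rank 1 to rank 5 at 36.2 ± 0.532. PROCR (14.9), THBD (13.1), TFPI (6.07) and SERPINE2 (3.44) followed. The deposited lengths merge all transcripts, which lowers the value of genes with many of them. With the length of the canonical transcript instead, PLAT stood highest in control cells (130.2), F3 next (126) and again at rank 5 after knockdown, and PLAUR (172) and PLAU (170.3) led the siPRMT1 cells.

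**Figure D3:**
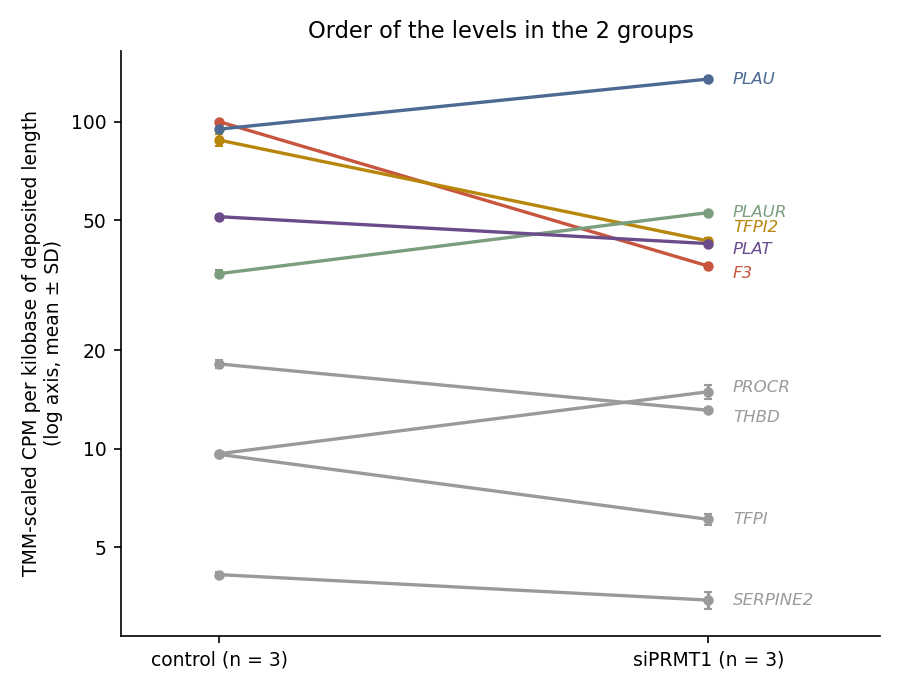
TMM-scaled CPM per kilobase of deposited gene length (log axis, mean ± SD, n = 3) for the 9 genes in control and siPRMT1 cells. F3 drops from rank 1 to rank 5 while PLAU and PLAUR take ranks 1 and 2.

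The balance between partners was measured as a ratio of counts inside each library, which does not depend on the scaling between libraries. F3 had 2.53, 2.59 and 2.59 reads per TFPI read in control cells and 1.48, 1.42 and 1.52 in siPRMT1 cells, a ratio 1.75-fold lower. Per TFPI2 read it had 1.32, 1.30 and 1.42 against 1.01, 0.965 and 0.999, 1.36-fold lower. F3 was thus lower relative to both inhibitors in each siPRMT1 library than in any control library. With the GC and length offsets these differences were wider, -1.70 and -0.77 on the log2 scale instead of -0.81 and -0.44.

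Relative to PLAT and SERPINE2, PLAU was higher in all siPRMT1 libraries. PLAU had 0.708, 0.708 and 0.694 reads per PLAT read in control cells and 1.19, 1.22 and 1.22 after knockdown, 1.72-fold higher. Per SERPINE2 read it had 7.45, 7.59 and 7.76 against 12.7, 13.9 and 12.3, 1.70-fold higher, or 0.36 instead of 0.77 on the log2 scale with the offsets. PLAU over PLAUR differed by -0.11 (SE 0.0315) on the log2 scale, and by 0.46 with the offsets. PLAT over SERPINE2 overlapped between the groups, with a difference of -0.013 (SE 0.0543). THBD had 4.42, 4.56 and 4.44 reads per PROCR read in control cells and 2.13, 2.15 and 1.99 in siPRMT1 cells, 2.14-fold lower; the log2 difference of -1.10 was -0.51 with the offsets. For 6 of the 7 pairs a two-sided exact permutation test over the 6 libraries gave p = 0.1, the smallest that 3 against 3 allow (0.117 after Benjamini-Hochberg adjustment over the pairs), and for PLAT over SERPINE2 exact p = 0.9.

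**Figure D4:**
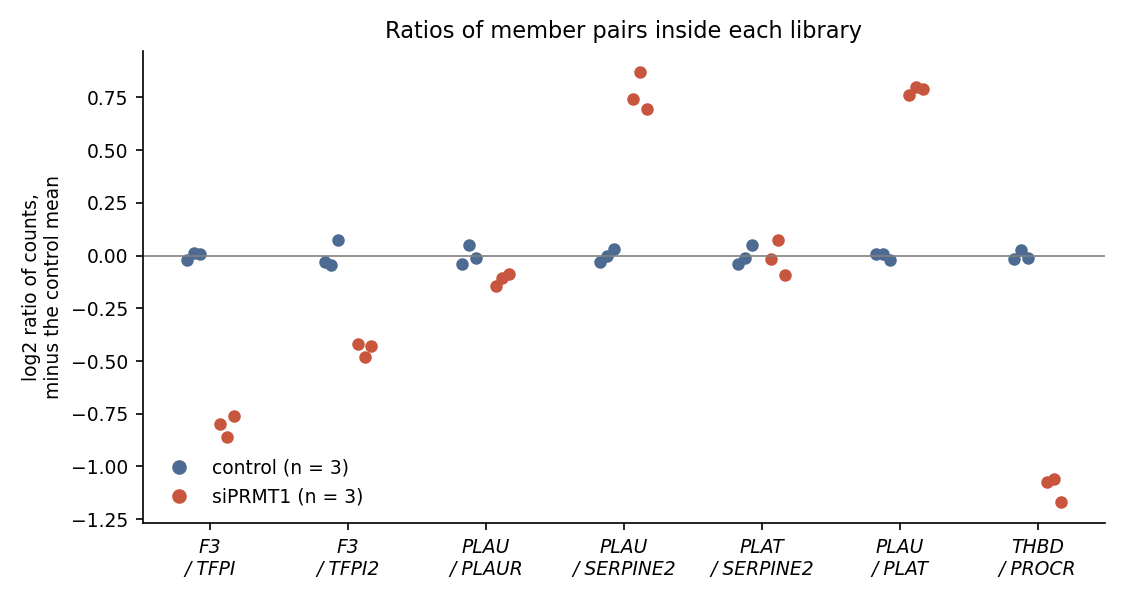
Log2 ratio of counts for 7 gene pairs in each library, minus the mean of the 3 control libraries. The siPRMT1 libraries lie apart from the controls for every pair except PLAT over SERPINE2, and the widest shift is THBD over PROCR.

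Other genes of the system were taken from 8 fixed lists, and no list was tested as a set. Their counts stand beside those of all tested genes, of which 45.0% were lower and 44.3% higher (42.7% and 37.5% with the offsets). The receptors that read coagulation proteases mostly fell: of 4 protease-activated receptor genes 3 were lower and none higher (median log2 fold change -1.20, and -0.80 with the offsets). F2RL1, the receptor cut by the tissue factor complex and by trypsin, went from 274 ± 3.8 to 75.9 ± 1.06 CPM (-1.85, and -1.58 with the offsets). The main thrombin receptor gene F2R fell (-1.02, -0.56 with the offsets), and F2RL2 fell (-1.37, -0.88) from under 1 CPM. F2RL3 did not pass (-0.048) but was lower with the offsets (-0.72).

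Genes listed for membrane and disulphide control of tissue factor mostly fell. The list holds genes of opposite effect on phosphatidylserine, so its counts give no direction for tissue factor activity, which was not measured. Of 10 genes for phosphatidylserine distribution and disulphide exchange 8 were lower and 2 higher (median -0.57, and -0.48 with the offsets). Over all tested genes 45.0% were lower and 44.3% higher. The flippase gene ATP11A (-2.93, -2.47 with the offsets) and its partner TMEM30A (-1.81, -0.80), whose products keep phosphatidylserine on the inner leaflet, fell. The scramblase gene ANO6 (-1.39, -0.52 with the offsets), whose product exposes that lipid, fell as well. So did PLSCR1 (-1.28, -0.86) and the disulphide isomerase gene PDIA4 (-0.79, -1.03). XKR8 (0.54) and P4HB (0.42), the gene of protein disulphide isomerase, rose, but both were lower with the offsets (-0.44 and -0.28). PDIA3 (-0.092) and TMX1 (-0.35) fell but were higher with the offsets (0.38 and 0.80).

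The clotting factors themselves had few counts. Of 16 coagulation factor genes 3 were tested, and 5 had no count in any library; F7, which encodes the ligand of tissue factor, had 1 count over all libraries. F8 fell (-0.67) but was higher with the offsets (0.42), F12 rose (1.02, but -0.14 with the offsets) at under 4 CPM, and F13A1 (0.41) did not pass, but did without control replicate 2 and with the offsets (0.75). Plasminogen (PLG) had no count. A list of natural anticoagulants and the protein C pathway held 9 genes, of which 4 were tested. Of these, 3 were higher and 1 lower (2 and 2 with library size alone, 4 and 0 with the offsets). GAS6 (1.01, 0.046 with the offsets), which is on the list but is not an anticoagulant gene, rose. SERPIND1 (0.81, heparin cofactor II) rose as well. ANXA5 rose by 0.27 (0.17 with the offsets) but was at -0.042 with library size alone. The protein S gene PROS1 fell (-0.54), but was higher with the offsets (0.11).

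Among 4 tested genes of plasminogen and its inhibitors 2 were higher and 1 lower, but 1 and 2 with library size alone and 1 and 1 with the offsets. SERPINF2, the alpha-2-antiplasmin gene, rose (1.25) at under 4 CPM, but did not pass with the offsets (0.27, adjusted p = 0.151 by edgeR), and SERPINE3 fell (-1.71) from 2.18 CPM. SERPINI1, the neuroserpin gene, was higher by 0.23 (-0.084 with library size alone) and by 0.35 with the offsets, where it was the gene still called higher. The count of higher genes was 1 instead of 2 with DESeq2, upper-quartile scaling or no filter, and without control replicate 2, control replicate 3, siPRMT1 replicate 1 or siPRMT1 replicate 2. SERPINB2, which encodes a urokinase inhibitor, did not pass (-0.095). Plasminogen docking genes rose in 4 of 5 cases, and in 3 of 5 with the offsets: S100A10 (1.13, 0.62 with the offsets) and ANXA2 (0.65, 0.28), which form a plasminogen-binding complex, H2BC12 (1.24, 0.13 with the offsets) and ENO1 (0.72, -0.035 with the offsets). PLGRKT, a plasminogen receptor gene, was lower (-0.25), a call that was lost with DESeq2 and without control replicate 1. Over all tested genes 44.3% were higher, and 37.5% with the offsets.

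Among 14 tested partners and clearance receptors of the urokinase receptor 10 were lower and 3 higher (median -0.45), and 9 and 4 with the offsets (median -0.34). Over all tested genes 45.0% were lower and 44.3% higher, and 42.7% and 37.5% with the offsets. The integrin genes ITGAV (-2.34, -1.14 with the offsets) and ITGB1 (-2.11, -1.39) fell. So did the receptor genes SORL1 (-1.92, -1.12 with the offsets), LRP8 (-1.11, -0.43) and IGF2R (-1.34, -0.63). VLDLR fell (-0.45) but was higher with the offsets (0.57). LRP1, the main clearance receptor of urokinase bound to its inhibitor, fell by 0.28 on the log2 scale. Its chaperone gene LRPAP1 (1.18, 1.61 with the offsets) and the integrin genes ITGA5 (0.90, 0.54) and ITGA3 (0.52, 0.11) rose. Of 4 tested pericellular proteases and Kunitz inhibitors SPINT1 (1.20, 0.49 with the offsets), ST14 (0.67, -0.056 with the offsets) and SPINT2 rose and TMPRSS2 fell (-2.33, at 7.22 CPM or less). SPINT2 was at 0.22, but -0.10 with library size alone and -0.64 with the offsets, under which the list had 1 higher and 2 lower (2 and 2 with library size alone).

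**Figure D5:**
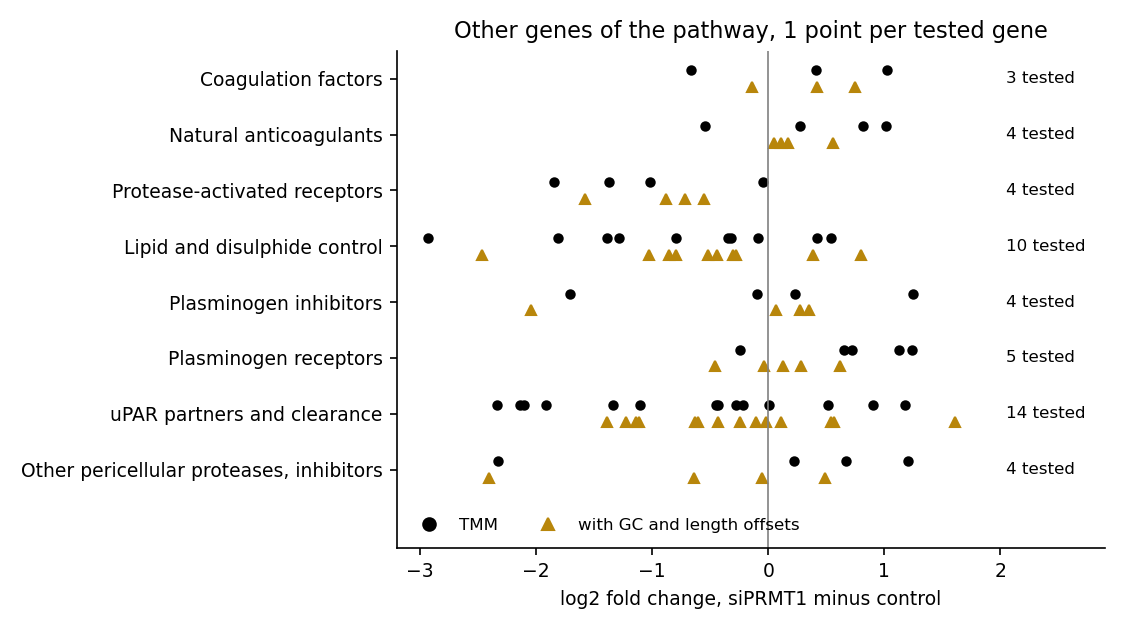
Log2 fold change (siPRMT1 minus control) of every tested gene in 8 pathway lists, with TMM scaling (circles) and with GC and length offsets (triangles). The 4 protease-activated receptor genes lie at or below 0 in both, while plasminogen receptors lie mostly above 0 with TMM and nearer to 0 with the offsets.

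Several of the 9 genes are best known from endothelium, so markers of other cells were read. Among 6 endothelial markers CDH5 had 1 count over all libraries, TEK 12 and CLDN5 15. The summed level of the list was 78.3 to 82.6 TMM-scaled CPM in control and 157 to 162 in siPRMT1 libraries. Most of it came from ESAM (mean 54.3 in control, 139 in siPRMT1) and PECAM1 (21.03 and 20.03). KDR fell by 3.00 on the log2 scale from 4.41 CPM. Platelet markers summed to 2.25 to 2.46 CPM against 1.71 to 1.74 CPM, with PPBP and GP9 at 0. Leukocyte markers summed to 204 to 208 CPM against 377 to 383 CPM, nearly all CD68, while PTPRC had 11 counts and CD3E 2. Hepatocyte markers summed to 66.6 to 69.3 CPM against 141 to 146 CPM, nearly all SERPINA1, with TTR and FGB at 0. The part of these markers in the values of the 9 genes was not tested. The labelled line's own markers were present in control cells, with VIM at 1817, CD44 at 1156, KRT18 at 255 and EGFR at 237 CPM. VIM (0.38) and KRT18 (1.82) rose, and CD44 (-0.72) and EGFR (-1.08) fell. With the offsets 1 of these 4 was higher and 3 lower. The hormone receptor genes ESR1 and PGR had 5 counts and 1 count in all. ERBB2, listed with them, was at 61.3 CPM in control and 72.9 CPM in siPRMT1 cells.

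The 5 genes whose pattern over the 6 libraries was most like that of F3 were MUC5AC, a mucin gene, NAMPT, an enzyme gene of NAD salvage, PHF3, SPIN1 and EIF4E, the gene of the cap-binding protein. Likeness was the Euclidean distance between log2 CPM centred on the control mean, over 10052 genes with a mean of at least 10 CPM. The distances ran from 0.0398 to 0.0561, and 885 genes lay within 0.5. Because replicates spread little, the distance mostly compared fold changes, and it is no sign of shared regulation. The log2 fold changes of these 5 genes ran from -1.49 to -1.45, beside -1.47 for F3. With the offsets MUC5AC (-1.47) stayed near F3, while the other 4 ran from -0.73 for EIF4E to 0.031 for PHF3.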

How the data were processed

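Stranded mRNA libraries (total RNA extracted with TRIzol, paired reads of 150 bases) were made from 3 control and 3 siPRMT1 samples, per the labels' protocols. The authors deposited raw read counts by gene, as whole numbers, with gene coordinates and lengths, per the file headers. Tools listed in the submitters' processing notes, without roles, are STAR 2.7.6a, fastp 0.23.2, Subread 1.5.1, featureCounts and edgeR 3.40.2, with the build hg38. No source used here states the annotation release, the strand setting or how duplicates were handled.

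From these counts, genes were filtered with filterByExpr, scaled by TMM and compared with edgeR 4.0.16 in R 4.3.3 (glmQLFit, glmQLFTest, all 6 samples, no covariates, Benjamini-Hochberg adjustment over 13710 genes, two-sided, threshold 0.05). The SE of a log2 fold change was computed from its F statistic. The common dispersion, 9.77e-05, was at the floor of edgeR's search. Replicates within a group differed slightly more than sampling noise (chi-square over degrees of freedom from 1.05 to 1.38), so all 6 were kept. The GC and length offsets were splines with 5 degrees of freedom on the G and C content and length of GENCODE 44 canonical transcripts, fitted per sample. Both properties were known for 13694 tested genes. Ratios used counts plus 0.5. The fits were tested on simulated data with known changes, with a larger dispersion and far fewer changed genes than here. That checks the code and says nothing of the p-values of these data.

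The 9 genes and the lists were chosen with earlier results of these data known. A few list genes are not reported here and were left out of the lists' counts. Besides the 9 genes and PRMT1, list genes were named if past the threshold with at least 10 CPM in a group (up to 6 per list), or against the list's majority. F7, PLG, F2RL2, F2RL3, SERPINB2, SERPINF2, SERPINI1, F12, F13A1, SERPIND1, ST14, SORL1, VLDLR, LRP1, LRP8, PLSCR1, PDIA3 and TMX1 were added after their values were seen, as were the marker genes given singly. Alternatives were RLE, upper-quartile and library-size scaling, DESeq2 1.42.0, limma-voom (limma 3.58.1), glmTreat, 2 other filters, the replicate number as a block, the offsets, and leaving out each sample. Motifs and promoters were read in Python 3.11.15.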

Additional observations from a re-analysis of the deposited data

How the results depend on the processing

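All 9 genes kept their direction and stayed past the threshold with RLE, upper-quartile or library-size scaling, DESeq2, limma-voom, no filter, a stricter filter (1 CPM or more in 3 samples), the replicate block, and without each library in turn. The genes that turned were TFPI (0.41), PLAUR (-0.38) and PROCR (-0.14) with the GC and length offsets, and the same values came from the offsets with the replicate block (0.41, -0.38 and -0.14). The cause was not tested. Against a 2-fold change (glmTreat, a stricter question by construction) 4111 of all genes passed, and of the 9 genes 0 higher and 1 lower, F3. TFPI2, at -1.02, no longer passed (adjusted p = 0.185).

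With the replicate number as a block (replicate block) 12219 genes passed against 12243 without it. Same-numbered samples did not deviate together (r = -0.017, -0.027 and -0.017 across genes), so no sign of pairing by number was seen. The spread of replicates was near sampling noise, so this check cannot exclude a pairing.

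With the offsets the log2 differences of the ratios were -1.70 (F3 over TFPI), -0.77 (F3 over TFPI2), 0.46 (PLAU over PLAUR, turned from -0.11), 0.36 (PLAU over SERPINE2), -0.19 (PLAT over SERPINE2), 0.55 (PLAU over PLAT) and -0.51 (THBD over PROCR). Without 1 library each, PLAT over SERPINE2 ran from -0.056 to 0.027, turning without control replicate 3 (0.011) and without siPRMT1 replicate 3 (0.027). With 3 libraries in each group, no exact permutation test of a ratio can go below p = 0.1.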
